A study of Mus musculus with 12 samples.

Results

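Solute carriers are the membrane proteins, numbered by family with the symbol Slc, that move amino acids, sugars, metal ions, nucleotides and lipids into cells and between their compartments. The 122 genes described here are the rows of the deposited table whose symbol begins with Slc and a digit and whose mean over all 12 embryos was 6 or more on the normalized log2 scale, of 201 Slc rows and 12516 rows in all. The rule also leaves out 12 named carriers, chiefly those of vitamin C, glucose, iron and the heavy-chain amino acid exchanger, 10 of which the table lists, and 69 further Slc rows were below the limit. The members were thus selected on their mean level, so the level itself is a description and is not tested, whereas the difference between diets was not part of the rule. Just inside the limit were Slc9a5, a sodium/proton exchanger, with a mean of 6.03, and Slc11a1, a divalent metal carrier, with 6.08, and just outside it were the cystine carrier Slc7a9 with 5.98 and the glutamine carrier Slc1a5 with 5.94. For 4 members the symbol does not name a carrier: Slc9a3r1 and Slc9a3r2 encode scaffold proteins, Slc4a1ap encodes kanadaptin and Slc7a6os encodes a protein linked to RNA polymerase II.

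RNA was taken from Oct4+ germ cells sorted from female mouse embryos, each at embryonic day 13.5 and each giving its own library. Both groups had the genotype Gulo-/- and a C57BL/6 background. Mice without Gulo lack the final step of making vitamin C and must take it from food, here through the mother. In the supplied group, 6 embryos developed with vitamin C at a physiological level, and in the withdrawn group 6 embryos developed while it was withheld over the first 2 weeks of gestation. The titles carry a number from 1 to 4 in each diet, with 2 embryos each under numbers 1 and 4. The labels do not say whether this number marks a litter, and where embryos shared a mother the p-values below are too small.

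Most carriers of the mitochondrial inner membrane belong to the SLC25 family, which exchanges ADP for ATP, citrate for malate, or aspartate for glutamate across a membrane that is otherwise closed to these molecules. Plasma membrane carriers of the SLC6, SLC7, SLC38 and SLC43 families bring amino acids and related compounds into the cell. Zinc is moved out of the cytosol by SLC30 carriers and into it by SLC39 carriers. Fetal female germ cells are entering meiosis at about this age, and they take up such substrates from the surrounding gonad.

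Between diets, the solute carriers showed small differences in both directions, at about the rate of other genes. Of 122 members, 10 rose and 9 fell in the withdrawn embryos (adjusted p below 0.05 in limma, with p-values adjusted over all 12432 genes tested). That is 15.6% of the members, against 14.0% of all genes tested and 15.8% of those with a mean of 6 or more. Over all genes tested, 6.22% rose and 7.75% fell. The median difference over the members was -0.01 on the log2 scale, withdrawn minus supplied, and the same median over all genes tested was -0.01. In 3 members the groups did not overlap (2.46%, against 4.49% of all genes tested and 482 of the 9660 with a mean of 6 or more). The differences ran from -0.47 in the vesicular zinc carrier Slc30a4 to 0.52 in the mitochondrial carrier Slc25a13, a 1.44-fold higher value, and Slc25a13 was the only member over 0.5 in size. The SD within a diet had a median of 0.13 over the members, from 0.06 in Slc25a33 to 0.26 in Slc39a9. The 118 members that are carriers gave 17 calls, 8 higher and 9 lower.

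**Figure D1:**
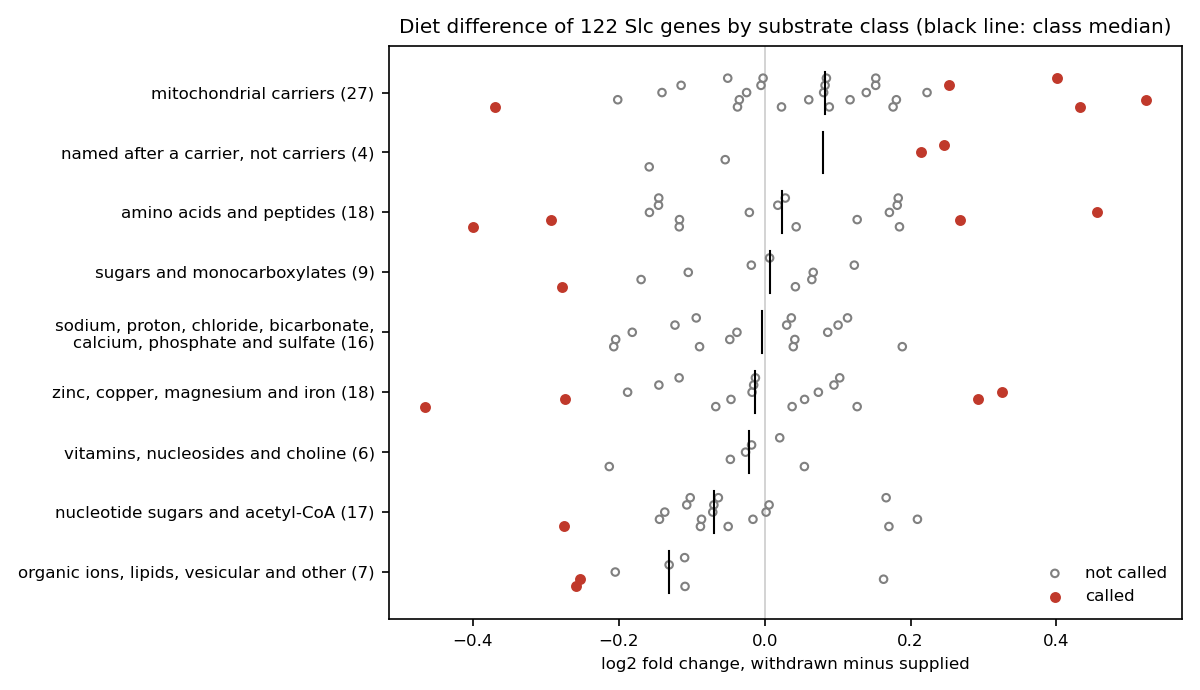
Log2 fold change (withdrawn minus supplied, n = 6 embryos per diet) of the 122 Slc genes, 1 point per gene, by substrate class with the number of genes in parentheses. Filled points are genes with an adjusted p below 0.05, open points are the others and black lines are class medians, from 0.08 in the mitochondrial carriers to -0.13 in the carriers of organic ions and lipids.

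The calls rest in large part on the embryos with title number 4. In all 19 called members the difference between diets was largest within that number, as it was in 1371 of the 1737 called genes of the table. Over all 122 members, called or not, it was largest there in 59. Without the 4 embryos of number 4, all 19 kept their direction and all 19 were smaller, at a median of 0.59 of the size with all embryos. The embryos that remain also took part in calling these genes, so a kept direction is no independent check. None of the 122 members then passed in limma (0.394% of all genes did). An unadjusted p below 0.05 in limma was found in 19 members, which are not the same set as the 19 called ones. Slc39a6, for example, was called with all embryos and then differed by -0.08 (SE 0.08). The matching count over all genes is not given for this setting. With all 12 embryos, 39 members and 3754 of the 12432 genes tested were below 0.05. Leaving out title number 1, which also removes 4 embryos, left 7 calls (5.86% of all genes passed). When the mean of 26 markers of somatic cells was added to the model as a covariate, 3 members passed, Slc25a13, Slc25a4 and Slc25a5 (3.36% of all genes). Their log2 differences were then 0.52, 0.43 and 0.42. Among members that no longer passed, some differences were smaller (Slc6a8, -0.34 against -0.40) and some larger (Slc39a14, 0.34 against 0.33). The covariate itself averaged 5.222 in supplied and 5.148 in withdrawn embryos. When the 2 embryos of a shared title number and diet were averaged, 1 member passed, Slc25a13 (2.40% of all genes).

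**Figure D2:**
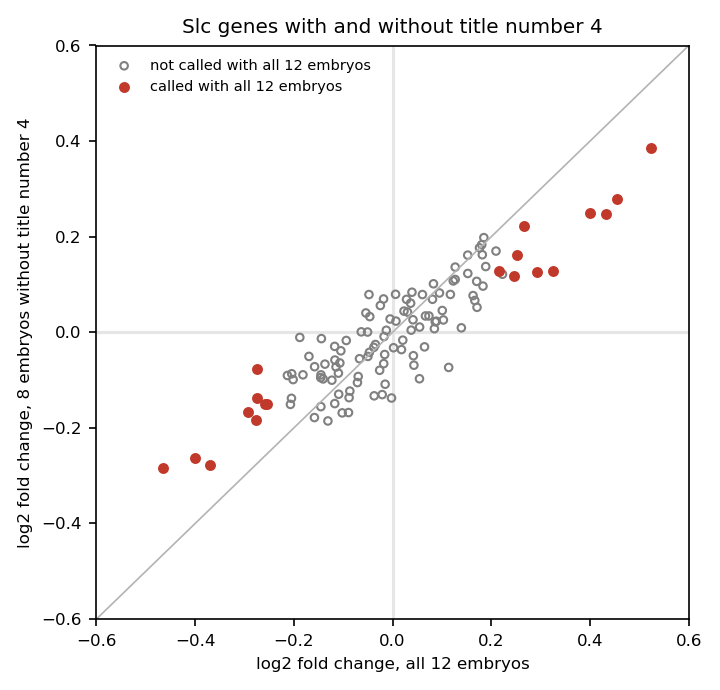
Log2 fold change (withdrawn minus supplied) of each of the 122 Slc genes with all 12 embryos (x axis) and with the 8 embryos left without title number 4 (y axis). Filled points are the 19 genes called with all embryos, and the grey diagonal marks equal values. All 19 lie on the side of the diagonal nearer to 0 and none changes sign.

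The markers of the sorted cells were present: all 8 germ cell markers were in the table and 7 were above 6. Of these, 4 rose in the withdrawn embryos (Pou5f1, Dppa3, Dnd1 and Tfap2c) and 2 fell (Ddx4 and Dazl). All 10 markers of supporting cells of the fetal ovary had negative differences, with a median of -0.09. So did the 5 tested markers of mesenchymal cells, with a median of -0.14. None of either list passed in limma or in the exact permutation test. In limma, 4 of each list had an unadjusted p below 0.05, as did 3754 of all 12432 genes tested. The summed linear level of the supporting cell markers was 453 to 532 in supplied and 432 to 496 in withdrawn embryos, and that of the mesenchymal markers 201 to 310 and 199.7 to 230.1. In the other somatic lists, 3 of 5 endothelial markers, 2 of 3 macrophage markers and 1 of 3 mesonephric markers had negative differences, with medians of -0.01, -0.03 and 0.02, and none passed in limma (1 macrophage marker had an unadjusted p below 0.05). None of 10 red blood cell markers was in the table. The part of these shifts in the differences of the carriers was not tested beyond the covariate given above. In sorted bulk RNA, a change in the mix of cells and a change in the RNA of each cell cannot be told apart.

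Of 27 mitochondrial carriers, classed by the SLC25 family number, 4 rose and 1 fell, 17 differences were positive, and the median was 0.08. The calls were 18.5% of the class, against 15.8% of genes tested with a mean of 6 or more. The proximal promoters of the 2 of these carriers that rose most and of the one that fell are shown for their CpG pairs, because vitamin C is known as a cofactor of the TET enzymes, which act on methylated CpG. Each is the 250 bases upstream of the RefSeq start on the coding strand (minus strand, build GRCm38.p6), 5′ to 3′, with CpG pairs in capitals. Slc25a13 was read from chr6:6217174-6217423, Slc25a4 from chr8:46211063-46211312 and Slc25a23 from chr17:57059864-57060113.
Slc25a13: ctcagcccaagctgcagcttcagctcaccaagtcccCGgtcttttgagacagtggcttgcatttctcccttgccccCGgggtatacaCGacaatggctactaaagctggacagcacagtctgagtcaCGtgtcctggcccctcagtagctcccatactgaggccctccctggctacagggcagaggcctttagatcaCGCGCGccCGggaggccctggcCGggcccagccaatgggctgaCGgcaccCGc
Slc25a4: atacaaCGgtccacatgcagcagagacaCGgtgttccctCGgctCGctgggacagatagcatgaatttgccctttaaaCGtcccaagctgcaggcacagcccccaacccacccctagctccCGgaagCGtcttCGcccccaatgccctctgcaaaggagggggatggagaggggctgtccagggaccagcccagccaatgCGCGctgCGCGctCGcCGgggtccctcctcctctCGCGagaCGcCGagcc
Slc25a23: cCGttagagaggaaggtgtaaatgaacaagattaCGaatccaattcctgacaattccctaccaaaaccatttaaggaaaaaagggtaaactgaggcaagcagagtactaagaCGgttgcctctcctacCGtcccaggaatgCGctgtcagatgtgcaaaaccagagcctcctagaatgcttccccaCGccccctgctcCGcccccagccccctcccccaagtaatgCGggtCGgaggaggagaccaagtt
The window of Slc25a13 holds 11 CpG pairs, that of Slc25a4 holds 18 and that of Slc25a23 holds 9. In Slc25a13 and Slc25a4 most pairs lie in the 3′ end, next to the start, and the data hold no methylation values for these windows.

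Windows were found for 101 of 122 members. The members had a median of 17 CpG pairs in 250 bases, against 6 over all 27025 genes with a window. Those 27025 genes were not selected by level as the members were. This contrast and the motif shares below are therefore not set against genes of a like level. The median number of CpG pairs was 20 in the 8 members called higher and 22 in the 7 members called lower that have a window. The NF-Y box CCAAT, on either strand, was in 54.5% of the windows of mitochondrial carriers (12 of 22), in 36.6% of those of all members and in 34.5% of those of all genes. It occurs 2 times in the window of Slc25a4 and 1 time in each of the other windows shown. The core GCGCANGCG of NRF1, a factor known for its nuclear targets among mitochondrial genes, was in 7.92% of member windows and 5.33% of all windows, searched on either strand. The ATF4 core TGATGNAA, the motif of amino acid shortage, was in 0.99% of member windows and 3.53% of all windows. These matches describe letters in the windows and not binding.

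Slc25a13 encodes citrin, which exports aspartate from mitochondria in exchange for glutamate and so drives the shuttle that carries reducing equivalents into them. Its normalized log2 values were 9.11, 9.33 and 9.53 (lowest, median and highest) in the 6 supplied embryos and 9.61, 9.77 and 10.29 in the 6 withdrawn embryos. The groups did not overlap, and the highest value belonged to an embryo of title number 4. The difference was 0.52 on the log2 scale (SE 0.10, adjusted p = 0.00340 in limma). This call held in 27 of the 28 alternative analyses and was lost only without title number 4 (0.39, adjusted p = 0.0530 in limma). Its paralog Slc25a12, named after its values were seen, carries the same exchange and differed by 0.08 (adjusted p = 0.503, 95% interval -0.08 to 0.25).

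Slc25a4 and Slc25a5 encode ADP/ATP translocases, which export the ATP made by oxidative phosphorylation. Slc25a4 values were 11.61, 11.79 and 12.08 in supplied and 11.97, 12.22 and 12.57 in withdrawn embryos. Only 1 withdrawn embryo was within the supplied range. The log2 difference was 0.43 (SE 0.09, adjusted p = 0.00480 in limma), or 1.35-fold. Slc25a5 values were 9.73, 10.01 and 10.37 against 10.22, 10.43 and 10.57, so that the highest supplied embryo lay among the withdrawn ones. The log2 difference was 0.40 (SE 0.09, adjusted p = 0.00683). Reads of Slc25a5 may be divided with its pseudogene Slc25a5-ps, which was found by name and not compared in sequence. Both calls held in 25 of 28 alternatives, including each left-out embryo, and without title number 4 the differences were 0.25 (adjusted p = 0.169) and 0.25 (adjusted p = 0.202). The third translocase, the germ cell form Slc25a31, is outside the members and fell, with a log2 difference of -0.44 (SE 0.14, adjusted p = 0.0407 in limma). Its values were 7.93, 8.63 and 9.06 against 7.66, 8.18 and 8.52, with only 1 withdrawn embryo below all supplied ones. Its highest supplied and lowest withdrawn values were both of title number 4.

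Slc25a1 encodes the citrate carrier, which supplies the cytosol with the carbon for acetyl-CoA. It had values of 9.36, 9.70 and 9.91 in supplied and 9.78, 9.91 and 10.06 in withdrawn embryos, with overlapping groups. The log2 difference was 0.25 (SE 0.08, adjusted p = 0.0398 in limma), and the call was lost when any of 9 single embryos was left out, with an adjusted p up to 0.106. The member that fell was Slc25a23, a calcium-regulated carrier of ATP-magnesium and phosphate, at 8.74, 9.10 and 9.43 against 8.52, 8.75 and 8.92. Of the withdrawn embryos, 3 of 6 were below all supplied ones. The log2 difference was -0.37 (SE 0.09, adjusted p = 0.0131), and the exons of the gene overlap an antisense gene, Gm17168, by 168 bases. Whether the reads were counted by strand is not stated in the sources used here.

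The other 22 mitochondrial carriers did not pass the test. Among those named after their values were seen, the phosphate carrier Slc25a3 differed by 0.18 (adjusted p = 0.0770 in limma), and its supplied values of 11.08, 11.27 and 11.35 lay under all but 1 withdrawn embryo (11.24, 11.45 and 11.54). Slc25a46, an outer membrane protein of the family that acts in mitochondrial fission, differed by 0.22 (adjusted p = 0.0719). Slc25a25, a relative of Slc25a23 that also carries ATP-magnesium, differed by -0.20 (adjusted p = 0.0943). Per kilobase of exon, the only scale on which levels are compared between genes here, Slc25a4 was the highest member. Its value, the log2 of the level per kilobase, was 10.78. Slc25a39 (9.52), which imports glutathione, Slc25a5 (9.50), Slc25a3 (8.87) and Slc25a1 (8.68) were among the highest 6, and the median member was at 5.64.

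**Figure D3:**
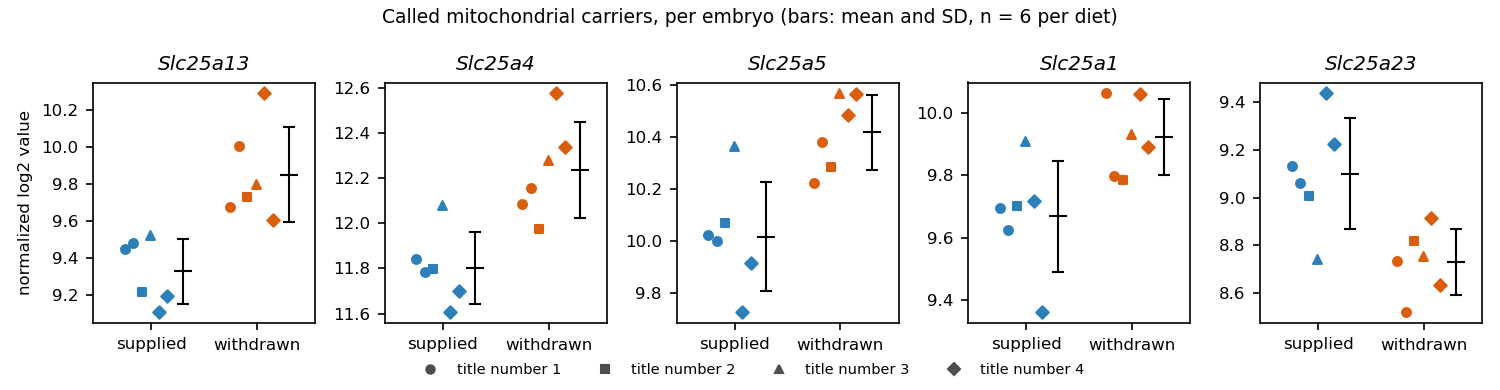
Normalized log2 value of the 5 called mitochondrial carriers in each embryo, 6 supplied and 6 withdrawn, with the mean and SD of each diet as bars and the title number as the symbol. The axes are scaled per gene and do not start at 0. Slc25a13 is the only gene of the 5 whose diets do not overlap.

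Among 18 carriers of amino acids and peptides, 2 rose and 2 fell, with a median log2 difference of 0.02. That is 22.2% called, against 15.8% of genes tested with a mean of 6 or more. All 3 SLC6 members passed, in different directions. Slc6a6, which takes up taurine, rose from 8.04, 8.49 and 8.80 in supplied to 8.67, 8.92 and 9.25 in withdrawn embryos. The groups overlapped in the range of the highest supplied embryo, and the log2 difference was 0.46 (SE 0.11, adjusted p = 0.0109 in limma). Slc6a8, which takes up creatine, the store of high-energy phosphate, fell from 7.15, 7.47 and 7.68 to 6.61, 7.14 and 7.24. One withdrawn embryo of title number 4 was far below the others, and the log2 difference was -0.40 (SE 0.10, adjusted p = 0.0124), or -0.31 (adjusted p = 0.0210) without that embryo. Slc6a17, a vesicular carrier of neutral amino acids, fell from 7.46, 7.75 and 7.97 to 7.30, 7.46 and 7.56. Its groups overlapped, and the log2 difference was -0.29 (SE 0.09, adjusted p = 0.0280). The call of Slc6a17 was lost without any of 5 single embryos (supplied 3, 5 and 6, withdrawn 4 and 6), with an adjusted p up to 0.0820, while Slc6a6 and Slc6a8 kept theirs under each left-out embryo.

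Slc43a1 encodes LAT3, a carrier of leucine and other large neutral amino acids that works without the heavy chain. Its values were 6.76, 6.82 and 6.90 in supplied and 6.96, 7.07 and 7.23 in withdrawn embryos, with no overlap. The log2 difference was 0.27 (SE 0.06, adjusted p = 0.00867 in limma). The related Slc43a2, named after its values were seen, differed by -0.16 (adjusted p = 0.197). The heavy chain Slc3a2 and its light chain Slc7a5, which import the same amino acids but are left out of the members by the rule, rose by 0.35 (adjusted p = 0.00386) and 0.40 (adjusted p = 0.00665).

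The 5 SLC38 members, most of which carry glutamine and other small neutral amino acids, had a median log2 difference of 0.18 and none passed. Slc38a10 was at 9.87, 9.92 and 10.19 in supplied and 10.02, 10.15 and 10.37 in withdrawn embryos. Its groups overlapped, with a difference of 0.18 (adjusted p = 0.0957 in limma, 95% interval 0.03 to 0.34). Slc38a4, a left-out member of that family, differed by 0.21 (adjusted p = 0.0621).

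Zinc carriers changed in both directions within each of their families. Of 18 genes for zinc, copper, magnesium and iron, 2 rose and 2 fell, and the median log2 difference was -0.01. That is 22.2% called, against 15.8% of genes tested with a mean of 6 or more. Slc30a4, which loads zinc into vesicles, fell from 8.47, 8.90 and 9.31 in supplied to 8.25, 8.41 and 8.71 in withdrawn embryos. The supplied embryo of title number 3 lay among the withdrawn ones and the rest of the supplied embryos were above them. The log2 difference of -0.47 (SE 0.11, adjusted p = 0.00814 in limma) was the widest fall among the members. The exons of Slc30a4 overlap 130 bases of 4930417H01Rik on the other strand. Slc30a2, another vesicular zinc carrier, rose from 7.90, 8.11 and 8.30 to 8.25, 8.37 and 8.68, with 2 withdrawn embryos inside the supplied range, and differed by 0.29 (SE 0.08, adjusted p = 0.0244).

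Slc39a14 imports zinc, iron and manganese. It had values of 8.63, 8.95 and 9.40 in supplied and 9.12, 9.29 and 9.43 in withdrawn embryos, and differed by 0.33 (SE 0.10, adjusted p = 0.0364 in limma). The lowest supplied values were both of title number 4, and without that number the difference was 0.13 (adjusted p = 0.537). Slc39a6, a zinc importer that pairs with Slc39a10, fell from 9.95, 10.23 and 10.50 to 9.68, 10.002 and 10.22, a difference of -0.27 (SE 0.09, adjusted p = 0.0471) that was -0.08 (adjusted p = 0.689) without title number 4. Slc39a10 had overlapping values of 10.88, 11.03 and 11.10 against 10.67, 10.87 and 11.03 and did not pass (-0.15, adjusted p = 0.185). The calls of Slc30a2 were lost without supplied embryo 5 or 6 (adjusted p up to 0.0720), those of Slc39a14 without any of 7 embryos (up to 0.105) and those of Slc39a6 without any of 9 (up to 0.128). The iron carriers Slc11a2 and Slc40a1, left out by the rule, differed by 0.04 and 0.08 and did not pass.

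**Figure D4:**
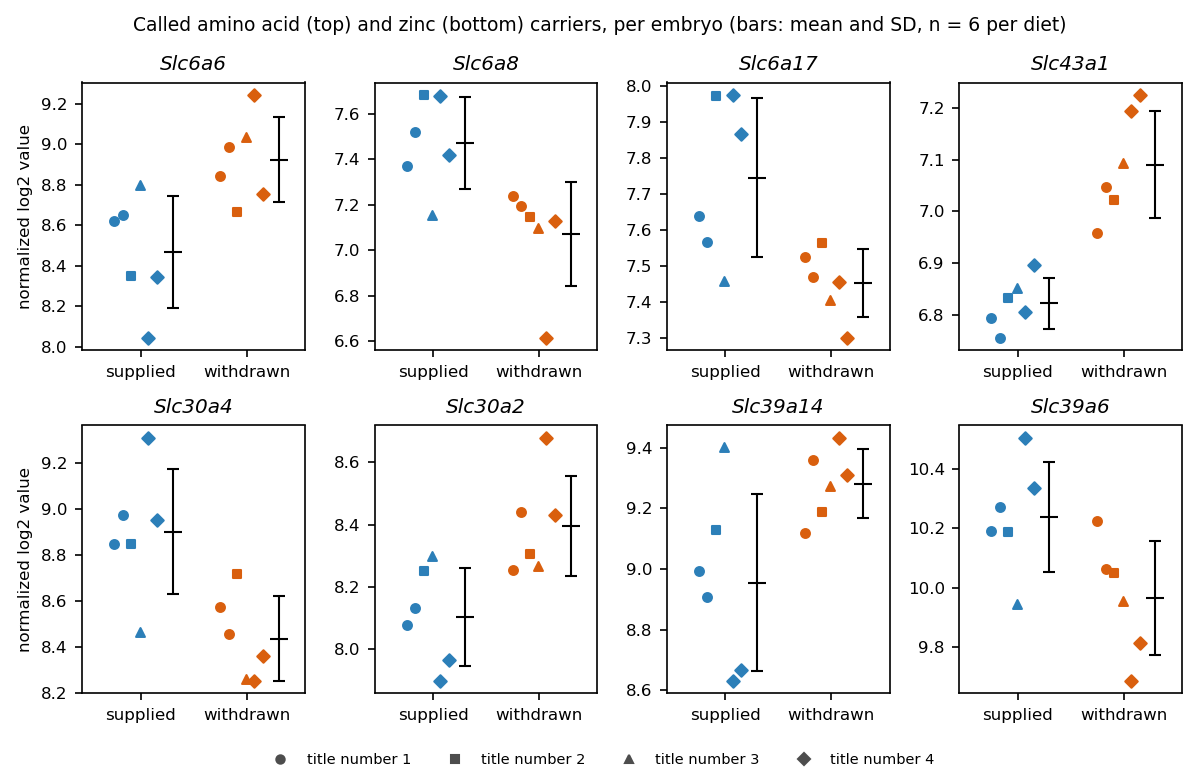
Normalized log2 value of the 4 called amino acid carriers (top) and the 4 called zinc carriers (bottom) in each embryo, 6 supplied and 6 withdrawn, with the mean and SD of each diet as bars and the title number as the symbol. The axes are scaled per gene and do not start at 0. Slc43a1 alone among the 8 has diets that do not overlap, and the embryos of title number 4 are far apart between diets in Slc39a14.

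The 7 carriers of organic ions and lipids had a median log2 difference of -0.13, and 2 of them fell. That is 28.6% called, against 15.8% of genes tested with a mean of 6 or more. Slc27a2, which activates very long chain fatty acids and aids their uptake, fell from 6.37, 6.41 and 6.76 in supplied to 6.13, 6.22 and 6.41 in withdrawn embryos. Only 1 withdrawn embryo was within the supplied range, and the log2 difference was -0.26 (SE 0.07, adjusted p = 0.0203 in limma). The exons of Slc27a2 share 419 bases with Gm26697 on the other strand. All 4 SLC27 members had negative differences, and the fatty acid carrier Slc27a4 did not pass at 8.79, 8.95 and 9.17 against 8.62, 8.76 and 8.87 (-0.20, adjusted p = 0.0567). Slc22a23, a carrier with no settled substrate, fell from 6.18, 6.32 and 6.60 to 5.98, 6.10 and 6.18, with 5 of 6 withdrawn embryos below all supplied ones (-0.25, SE 0.07, adjusted p = 0.0173). Leaving out supplied embryo 5 ended both calls (adjusted p up to 0.0608 and 0.0529), as did leaving out supplied embryo 6 for Slc27a2.

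Of 9 genes classed by family as carriers of sugars and monocarboxylates, 1 fell (11.1%, against 15.8% of genes with a mean of 6 or more). It was Slc5a3, which takes up the osmolyte myo-inositol, at 9.47, 9.57 and 9.68 in supplied and 9.07, 9.35 and 9.51 in withdrawn embryos. A single withdrawn embryo reached the supplied range, and the log2 difference was -0.28 (SE 0.08, adjusted p = 0.0238 in limma). Slc5a3 shares 159 exon bases with Mrps6 on the same strand, so reads may be divided between them, and the call was lost without supplied embryo 2 or 3 or withdrawn embryo 6 (adjusted p up to 0.0647). The lactate and pyruvate carrier Slc16a1, named after its values were seen, differed by -0.17 (adjusted p = 0.181). Slc45a4, a sugar carrier by family, differed by -0.02 (95% interval -0.19 to 0.16), and its groups overlapped. The glucose carriers, left out by the rule, differed by 0.43 in Slc2a3 (adjusted p = 0.00219) and 0.19 in Slc2a1 (adjusted p = 0.105).

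The 17 genes classed by family as carriers of nucleotide sugars and acetyl-CoA had 12 negative differences and a median of -0.07. Of the 17, 1 fell (5.88%, against 15.8% of genes with a mean of 6 or more). That gene was Slc35f5, a member with no settled substrate, which went from 6.07, 6.27 and 6.56 in supplied to 5.94, 5.98 and 6.16 in withdrawn embryos. Of the withdrawn embryos, 4 were below all supplied ones, and the log2 difference was -0.28 (SE 0.07, adjusted p = 0.0172 in limma, 0.0513 without supplied embryo 5). Slc35f2 had overlapping groups (9.28, 9.56 and 9.78 against 9.62, 9.71 and 9.84) and did not pass (0.17, adjusted p = 0.140).

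None of the 16 carriers of sodium, protons, chloride, bicarbonate, calcium, phosphate and sulfate passed in limma or in the exact permutation test. In limma, 4 of them had an unadjusted p below 0.05, as did 3754 of all 12432 genes tested. Among the 16 carriers, Slc12a2, which brings sodium, potassium and chloride into cells, had values of 10.73, 10.91 and 11.15 in supplied and 10.62, 10.74 and 11.09 in withdrawn embryos. Those groups overlapped widely (-0.12, 95% interval -0.30 to 0.05). None of the 6 carriers of vitamins, nucleosides and choline passed either, in limma or in the exact permutation test, and 1 had an unadjusted p below 0.05. This was the choline carrier Slc44a1, at 9.62, 9.73 and 9.80 against 9.26, 9.61 and 9.67 (-0.21, adjusted p = 0.0570), with 4 withdrawn embryos below all supplied ones.

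Among the 4 genes that are named after a carrier but are not carriers, 2 rose (15.8% of genes with a mean of 6 or more passed). Slc9a3r1, the scaffold that ties exchangers and receptors to the actin cortex, was at 10.69, 10.87 and 11.07 in supplied and 10.90, 11.16 and 11.27 in withdrawn embryos. Its groups overlapped, and the log2 difference was 0.25 (SE 0.08, adjusted p = 0.0381 in limma). Slc7a6os, at 7.78, 7.90 and 7.94 against 7.95, 8.09 and 8.27, had groups that did not overlap and differed by 0.21 (SE 0.07, adjusted p = 0.0475). The carrier gene for which it is named, Slc7a6, differed by 0.13 (adjusted p = 0.232) and was named after its values were seen. Either call was lost without any of 8 single embryos, with an adjusted p up to 0.104 and 0.102.

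**Figure D5:**
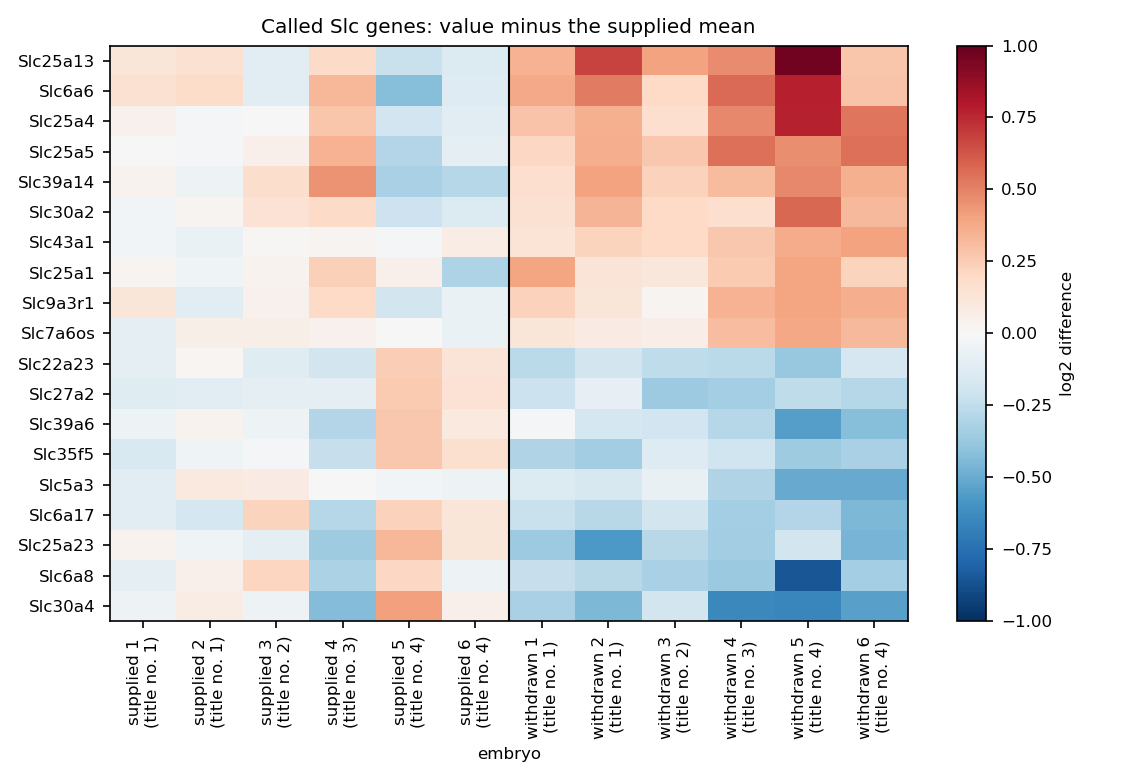
Value of each embryo minus the mean of the 6 supplied embryos, on the log2 scale, for the 19 called genes, with genes in rows and embryos in columns (6 supplied, then 6 withdrawn, title number in parentheses). Red is higher and blue lower than the supplied mean, and the colours of the supplied embryos of title number 4 are opposite to those of the withdrawn embryos in most rows.

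Genes that power or accompany solute carriers were counted as well. Of 16 such genes, 11 were tested, 2 rose and 1 fell, and the median log2 difference was 0.00. Over all genes tested, 14.0% passed. Brp44l, a subunit of the mitochondrial pyruvate carrier, rose by 0.31 (adjusted p = 0.00867 in limma), with values of 7.44, 7.52 and 7.79 in supplied and 7.77, 7.86 and 8.03 in withdrawn embryos that overlapped only through 1 supplied embryo. Slc3a2, given above, was the other. Atp1b2, a beta subunit of the sodium pump whose gradient drives SLC6 and SLC38 uptake, fell by 0.30 (adjusted p = 0.0120). Bsg, the chaperone of the lactate carriers, differed by 0.22 and did not pass (adjusted p = 0.0655).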

How the data were processed

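RNA-seq libraries of sorted germ cells were analysed, 1 per embryo, from 6 supplied and 6 withdrawn embryos. The authors deposited normalized log2 expression values. The submitters' processing notes name build mm9, DESeq2 1.10.1, TopHat2 2.0.13, FastQC and Trim Galore 0.4.0. Pseudocount, strand setting and filters are not stated there. The depth is unknown, so no counting error can be given, and low values may be compressed towards each other. Correlations between libraries were 0.986 to 0.999.

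Genes with a mean of at least log2 of 10 (12432 of 12516) were fitted in limma 3.58.1 (R 4.3.3) with diet as the only factor and a variance trend, two-sided, and called at a Benjamini-Hochberg adjusted p below 0.05 over that whole set. SE is the moderated SE. The exact permutation test used all 924 arrangements of the embryos (smallest p 0.00216). The fit was tested on simulated data in which embryos were independent, so that test does not cover embryos that share a mother or a title number. The text names all called members, the member with the highest mean value, not corrected for length, in each substrate class, the members beside the level limit, and paralogs said to be chosen after their values were seen. Classes follow family numbers alone, so the substrate or site of a single member may differ from its class name. Promoters are from RefSeq (GRCm38.p6), exon lengths and overlaps from GENCODE vM21. The members and lists were chosen with earlier results of these data known. Alternatives changed 1 choice at a time.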

Additional observations from a re-analysis of the deposited data

Results flagged for a closer look

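Of 56 groups of 6 embryos tested (28 named genes in each diet), 1 had an embryo that stood apart from the others by Dixon's criterion, where chance alone gives about 1 in 20. It was the creatine carrier Slc6a8, whose lowest withdrawn embryo (number 5, of title number 4) was at 6.61 on the normalized log2 scale, with the nearest of the others at 7.10, a gap of 0.778 of the range.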

How the results depend on the processing

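The 19 called members kept their direction in all 28 alternative analyses. Those analyses reuse the embryos by which the 19 were called, so a kept direction is no independent check. Taken within each title number, 13 of the 19 had the same sign in all 4 numbers (68.4%). The same held for 1397 of the 1737 called genes (80.4%). The number called was 12 with a random effect for embryos that share title number and diet, and 1 with such embryos averaged. It was 3 by the exact permutation test per gene and 3 with the somatic covariate. Without title number 1 it was 7, and without title number 4 it was 0. In that last setting 19 members had an unadjusted p below 0.05 in limma, not the same set as the 19 called ones. Leaving out single embryos gave 9 (without supplied embryo 5) to 25 (without supplied embryo 4), with 11 without supplied embryo 6 and 12 without withdrawn embryo 6. With the title number as a replicate block, 22 were called. Across diets, the deviations of embryos with the same number had correlations of 0.31, -0.04, 0.21 and -0.22 for numbers 1 to 4. Number 1 alone matched its own number best. With 4 numbers in each diet, these values cannot settle whether the number pairs the embryos. Normalization, filters, variance trend, robust moderation and array weights gave 17 to 23. The share of all genes that passed also fell with embryos averaged, with the somatic covariate and without title number 1 or 4, as given above. For the other settings that share is not given, so the spread of their counts is not read as particular to the solute carriers. Without title number 4, 17 of the 103 uncalled members changed sign. Of the uncalled members named by rule, Slc45a4 changed sign with array weights (0.058), without title number 4 (0.070) and over single embryos left out (-0.060 to 0.058), and Slc9a5 with averaged embryos (0.011), without title number 4 (0.079) and over single embryos left out (-0.088 to 0.0057). The causes were not tested. The unknown depth limits what can be said of members near the level limit.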

Other observations

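Of the 68 Slc rows tested below the mean of 6, 6 passed in limma (8.82%), 1 higher and 5 lower in withdrawn embryos, and the groups did not overlap in 4 of the 68. Over all genes tested 14.0% passed and 4.49% did not overlap. Of the 2772 genes below the mean of 6, 208 passed, a share near that of these Slc rows, and in 76 the groups did not overlap. Slc1a5, which exchanges glutamine, was higher, at 5.79, 5.86 and 5.91 (lowest, median and highest normalized log2 value) in supplied and 5.98, 6.02 and 6.12 in withdrawn embryos, and its groups did not overlap (0.18, adjusted p = 0.0162). Slc7a2, which takes up arginine and lysine, was lower, at 5.62, 5.72 and 5.91 against 5.39, 5.52 and 5.59, with no overlap (-0.21, adjusted p = 0.0134). Slc4a4, which moves sodium with bicarbonate, was also lower with no overlap, at 5.28, 5.33 and 5.59 against 5.09, 5.18 and 5.22 (-0.20, adjusted p = 0.0111). The glycine carrier Slc6a9 (-0.18, adjusted p = 0.0327), Slc22a17 (-0.17, adjusted p = 0.0246) and the monoamine carrier Slc29a4 (-0.15, adjusted p = 0.0459) were lower with overlapping groups. All 6 were named after their values were seen.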
